A study of Mus musculus with 24 samples.

Results

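Endothelial cells of injured mouse muscle were compared with those of uninjured muscle by taking the 3 arrays titled as endothelial cells on day 2 and the 3 titled as endothelial cells on day 0, 6 of the 24 arrays of the study. The muscle was the tibialis anterior of the mouse, injured with cardiotoxin, a snake venom toxin that destroys myofibres while vessels and stem cells can regrow. Day 0 was muscle recovered before injury, and day 2 was muscle recovered 2 days after it. Both groups went through the same mincing, enzymatic digestion and cell sort, which kept cells lacking CD45 and carrying Sca1, CD34 and CD31. The labels give no strain, age, sex or genotype, and they call the replicates biological without saying whether each was 1 animal or a pool. The p-values and SEs therefore measure spread between samples of a group. For each gene that spread was estimated over all 24 arrays, satellite cells and days 4 and 8 included, and not over the 6 alone. Groups were taken from the titles. The cell type field of the labels gave the same cell type as the title on all 6 arrays, whereas the time field gave another day on 5 of the 6. The arrays carry running numbers that rise with the day, and an effect of array number and an effect of time cannot be told apart here.

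The endothelium lines every vessel of the muscle, and in uninjured adult tissue its cells are mostly quiescent. Muscle capillaries take up fatty acids for the fibres, using lipases, fatty acid carriers and aquaporins at the cell surface. After injury, endothelial cells are known to leave quiescence, answer VEGF-family ligands, sprout behind a leading tip cell, loosen and rebuild the basement membrane, and attract leukocytes through adhesion molecules and chemokines. They also release growth factors that act on neighbouring muscle stem cells.

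Expression values are the deposited log2 values of the arrays, and 14064 genes passed a filter on low values that was set over all 24 arrays. A gene is said to have risen or fallen where the adjusted p of limma, a linear model fitted across all genes, was under 0.05 (Benjamini-Hochberg over all genes tested) and the log2 difference was at least 1. By that rule 524 genes rose (3.73% of those tested) and 423 fell (3.01%), together 6.73%, and the median difference over all genes was -0.01. All 3 day 2 arrays lay above all 3 day 0 arrays for 16.1% of genes and below them for 14%. Arrays of the same day correlated at 0.93 to 0.96 across genes, and arrays of different days at 0.86 to 0.91. Since the filter used every array, a gene near background on day 0 may have entered through another group, and the counts of list members below cover only those that entered. A fold is given only where the lower of both group means was at least 5.18, which is 1 log2 unit above the arrays' median.

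The cells carried endothelial genes on both days. Pecam1, which encodes the sort antigen CD31, read 11.41, 11.36 and 11.52 on the day 0 arrays and 11.29, 11.43 and 11.46 on the day 2 arrays. Cdh5, the cadherin of endothelial junctions, read 11.77, 11.82 and 11.69 on day 0 and 11.46, 11.77 and 11.80 on day 2. Both genes overlapped between the days, with log2 differences of -0.04 (SE 0.38) and -0.08 (SE 0.33). Of 32 endothelial identity genes tested, none rose and 3 fell (Gata2, Flt1 and Kdr), with a median difference of -0.26. On 14 of the 32 every day 2 array lay below every day 0 array (14% of all genes tested), and on 3 above (16.1%). The list means were 9.56, 9.60 and 9.43 on day 0 and 9.01, 9.17 and 9.35 on day 2. Gata2, a transcription factor of endothelial and blood lineages, fell by 1.53 on the log2 scale (SE 0.30), from 8.50, 8.56 and 7.82 to 7.29, 6.07 and 6.94. The call of Gata2 held when any 1 array was left out. Those of Flt1 and Kdr did not, and without day 0 replicate 2, day 2 replicate 1 or day 2 replicate 2, in turn, 1 gene of the list was called.

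Other cell types left traces that moved with the day. Of 29 macrophage and pan-leukocyte markers tested, 13 rose, and the mean of the list was 4.03, 4.00 and 4.13 on the day 0 arrays against 7.71, 5.15 and 6.66 on the day 2 arrays. Day 2 replicate 1 was the highest and replicate 2 the lowest of the 3. Without replicate 1, 8 of these markers were called, and without replicate 2, 22. Ptprc, which encodes the CD45 that the sort selected against, read 2.84, 2.78 and 2.89 on day 0 and 6.75, 4.32 and 3.64 on day 2, a difference of 2.07 (SE 0.79, adjusted p = 0.114). Of 17 neutrophil markers tested 7 rose, with list means of 3.27, 3.28 and 3.37 on day 0 against 5.58, 4.88 and 4.04 on day 2. Without day 2 replicate 1 or day 2 replicate 2, 4 neutrophil markers were called.

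Markers of mural cells and of myofibres were lower on day 2. Of 18 pericyte and smooth muscle markers tested none rose and 9 fell (4 without day 0 replicate 1 or without day 2 replicate 2), and the list means of 7.86, 7.31 and 7.00 on day 0 lay above those of 6.50, 5.41 and 5.80 on day 2. Of 17 mature myofibre markers tested 8 fell, among them Acta1, the actin of skeletal muscle, at 9.13, 8.22 and 8.78 against 6.30, 6.14 and 5.51. Without day 0 replicate 1 or day 2 replicate 2, 4 were called, and without day 2 replicate 1 or 3, 5. No marker passed the call rule among 21 of fibro-adipogenic progenitors, 10 of dendritic cells and lymphocytes, 7 of Schwann cells and 6 of erythroid cells and platelets (1 erythroid marker was called higher without day 0 replicate 1 or day 2 replicate 2). Lists of that size could give no call where 6.73% of all genes were called in either direction. Of 7 lymphatic endothelial genes Sned1 fell, and 2 were called without day 0 replicate 3. Of 18 satellite cell and myoblast markers 3 fell (Heyl, Des and Itga7), and 1 was called without day 0 replicate 1, day 0 replicate 2 or day 2 replicate 2. Pax7, the defining satellite cell factor, read 4.87, 4.89 and 4.95 against 5.10, 4.36 and 4.22. In sorted populations of this kind, fewer cells of a type and less RNA per cell cannot be told apart, and the part of other cells in the results below was not tested, so marker values are given beside the results they move with.

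**Figure D1:**
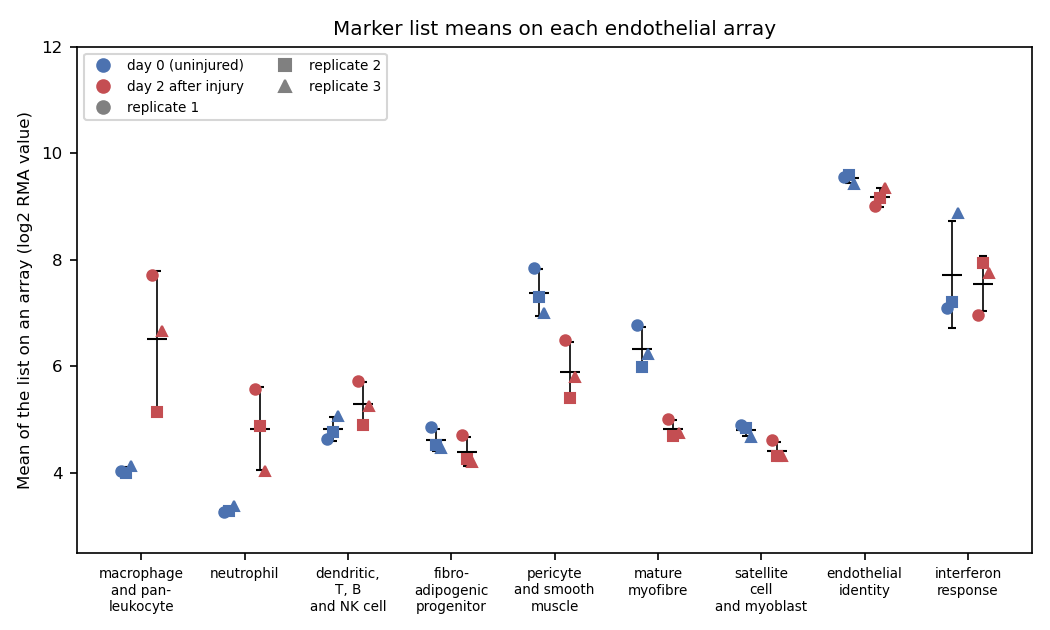
Mean log2 RMA value over each marker list on each of the 6 endothelial arrays, with day 0 in blue and day 2 in red, symbols for replicates, and bars for the mean and SD of 3 arrays. Macrophage and neutrophil lists lie higher on all day 2 arrays, and mural, myofibre, satellite cell and endothelial identity lists lie lower. The list of dendritic cells and lymphocytes overlaps between the days, and interferon response genes are highest on day 0 replicate 3 at 8.88.

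Among the 12 genes with the largest rise, vascular growth factors stood beside leukocyte genes. Except for Apln, their day 0 means lay near or below the array medians (4.11 to 4.22), so the size and order of these differences are set against background signal. Pgf encodes placental growth factor, a ligand of the VEGF family that binds the receptor encoded by Flt1. It read 4.38, 4.20 and 3.63 on day 0 and 9.19, 9.07 and 8.85 on day 2, a difference of 4.96 (SE 0.39, limma adjusted p = 1.35e-07). Apln, which encodes the peptide apelin, rose 19.7-fold, from 6.48, 6.26 and 4.77 to 10.59, 9.93 and 9.88 (adjusted p = 3.29e-06). AA467197 encodes a small protein of the mitochondrial NDUFA4 family and hosts a microRNA. It read 3.95, 2.87 and 4.19 against 10.52, 10.36 and 10.31, a difference of 6.73 (SE 0.39). On these 3 genes the day 2 arrays lay close together and all above day 0.

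The other 9 of these 12 genes were more uneven across the day 2 arrays. S100a8 encodes an abundant calcium-binding protein of neutrophils, and it read 9.36, 8.24 and 6.51 on day 2 against 2.29, 1.93 and 2.04 on day 0. Ctss, a lysosomal protease of macrophages, read 9.91, 6.86 and 9.20 against 3.30, 3.55 and 3.35. The order of the day 2 arrays in S100a8 followed that of the neutrophil list mean, and in Ctss that of the macrophage list mean. Both genes are themselves members of the list they were set against, so a shared order is partly built in. Tyrobp (5.05), Lilrb4a (4.81) and S100a9 (4.68), all expressed by myeloid cells, and the chemokine and cytokine genes Cxcl2 (5.69), Ccl2 (4.74), Il1b (4.42) and Ccl3 (4.38) made up the rest, given as log2 differences.

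The 12 genes with the largest fall came from several groups. Timp4, an inhibitor of matrix metalloproteases abundant in muscle capillaries, fell 24.1-fold, from 10.50, 10.86 and 11.05 to 4.49, 6.61 and 7.56 (adjusted p = 1.65e-05). Bmp6, a ligand of the bone morphogenetic protein family, fell 8.12-fold, from 8.59, 8.79 and 8.88 to 6.22, 5.31 and 5.66. Cdh23, an atypical cadherin, fell by 3.59 (SE 0.22), from 7.49, 8.00 and 7.39 to 4.04, 3.68 and 4.40, with an adjusted p of 1.25e-09. The day 0 arrays of these 3 genes were close together and lay above every day 2 array.

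Fmo2, a flavin monooxygenase, fell 8.27-fold, from 10.10, 10.51 and 10.90 to 7.02, 6.88 and 8.46. Aldh1l1, a folate enzyme, fell by 3.10 and Fgf9, a fibroblast growth factor, by 3.07, with no overlap between the days. Ecm2, an extracellular matrix protein, fell 10.3-fold. Snord35b, a small nucleolar RNA, fell by 4.77 (SE 0.70), from 9.77, 9.32 and 9.69 to 5.94, 3.70 and 4.82. Cytl1, a secreted protein, and the gene model Gm12002 fell by 2.98 and 2.93. The last 2 of the 12 were Vtn, the vitronectin gene and a pericyte marker, which fell by 3.12, and Tnnt3, fast skeletal troponin T, which fell by 2.98. Both stand beside the marker lists of mural cells and myofibres, which were lower on all 3 day 2 arrays. All 24 calls held when any 1 array was left out.

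**Figure D2:**
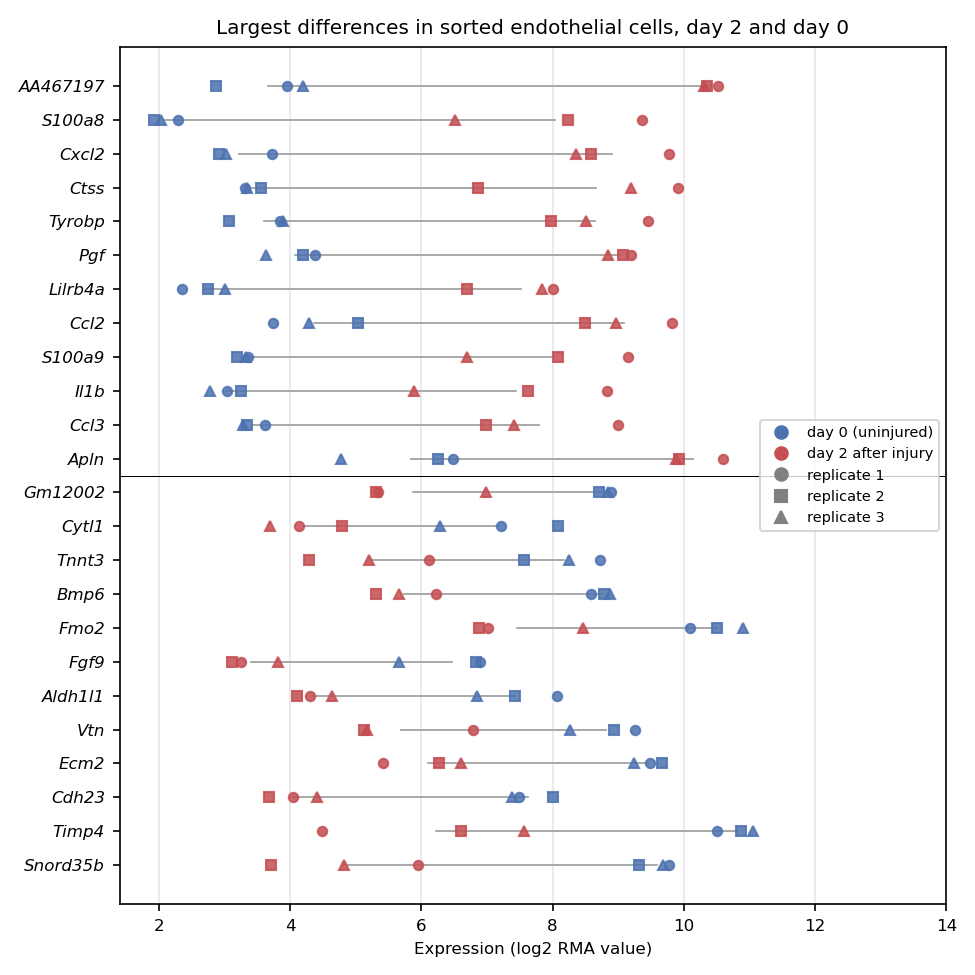
Log2 RMA values (x axis) of the 12 genes with the largest rise (top) and the 12 with the largest fall (bottom) on each endothelial array, day 0 in blue and day 2 in red, with grey lines joining the group means. Pgf, Apln and AA467197 have closely grouped day 2 values, while S100a8 ranges from 6.51 to 9.36.

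Cell division genes rose widely. Of 37 genes of the G2 phase and mitosis tested, 27 rose and none fell, with a median difference of 1.66. On 33 of them every day 2 array exceeded every day 0 array, against 16.1% of all genes tested. Without day 0 replicates 1, 2 and 3, in turn, 21, 19 and 20 were called. Without day 2 replicates 1, 2 and 3, in turn, 27, 19 and 21 were. Top2a, the topoisomerase that untangles replicated chromosomes, read 3.70, 2.96 and 3.25 on day 0 and 6.22, 7.47 and 6.91 on day 2, a difference of 3.57 (SE 0.31, limma adjusted p = 3.67e-07). Ube2c, which loads ubiquitin for the anaphase-promoting complex, rose by 3.02 (SE 0.38), from 4.80, 3.70 and 3.82 to 6.60, 7.24 and 7.55. Cdk1, the kinase that drives entry into mitosis, rose by 2.77 (SE 0.49), from 4.32, 3.60 and 3.96 to 5.84, 7.87 and 6.49. The day 2 array with the highest macrophage list mean, replicate 1, was the lowest of the 3 in each of these genes, as it was in the mean of the whole mitotic list. An order of 3 arrays says little, and the part of other cells in these rises was not tested.

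Mitotic cyclins and their partners moved the same way. Ccna2 (2.43) and Ccnb2 (2.40), cyclins that activate Cdk1, rose, as did Birc5 (2.37), the survivin of the chromosomal passenger complex, and Mki67 (2.27), the proliferation antigen. Mki67 read 5.37, 4.48 and 4.30 on day 0 and 6.62, 7.51 and 6.83 on day 2. No group overlapped on these 4 genes.

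Of 34 genes of the G1/S transition and DNA replication, 16 rose and none fell, with a median of 1.03. Gins2, a subunit of the replicative helicase complex, rose by 3.05 (SE 0.42), from 4.33, 3.96 and 3.97 to 6.65, 7.33 and 7.41. Uhrf1, which couples DNA methylation to replication, rose by 2.42, Mcm3, a helicase subunit, by 1.84, and Dtl, an adaptor that licenses replication only once, by 1.63. Ccnd1, the G1 cyclin D1, rose 2.68-fold, from 8.21, 7.74 and 6.72 to 9.32, 8.84 and 8.78. Pcna, the replication clamp, was high on both days and did not pass the rule, at 10.07, 9.80 and 10.11 against 10.46, 10.62 and 10.42. Of the replication list, 10 genes were called without day 0 replicate 3 or without day 2 replicate 3, and 9 without day 2 replicate 2.

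Of 16 inhibitors of the cell cycle 2 fell and none rose. Cdkn1c encodes p57, a cyclin-dependent kinase inhibitor associated with quiescence, and it fell by 2.12 (SE 0.26), from 7.03, 7.25 and 7.01 to 5.11, 4.84 and 4.98 (adjusted p = 2.43e-05). The arrays of each day lay close together, and the days did not overlap. Cdkn1b, which encodes the related p27, fell 2.08-fold, a call lost without day 2 replicate 2. Cdkn1a, the p53-induced inhibitor p21, read 8.87, 9.80 and 9.61 against 10.44, 9.88 and 10.10 and was not called.

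The start regions of mitotic genes are known to carry the cell cycle homology region, a short element bound by repressor complexes in resting cells, near CCAAT boxes bound by the factor NF-Y. The mitotic list was picked for this search by its share of called members in these data. Its members that were not called were not searched, so the shares below cannot be tied to the day 2 rise. RefSeq windows of 300 bases, from 250 before to 50 after the gene start (build GRCm38.p6), were at hand for 22 of the 27 called mitotic genes, in 24 windows. On either strand, TTTGAA or TTTAAA occurred in 22 of the 24 windows (91.7%), against 19.8% of the windows of tested genes and 27.6% of all windows. CCAAT occurred in 17 of the 24 (70.8%), against 37.2% and 37.4%. Both occurred together in 70.8%, against 7.72% and 10.7%. The E2F motif, searched as TTTGGCGC or TTTCCCGC, occurred in 0 of the 24, against 2.78% of the windows of tested genes. The AP-1 motif TGACTCA also occurred in 0 and the NF-kB motif (GGG, any 2 bases, then TTTCC) in 4.17%, against 3.91% and 1.61% of the windows of tested genes. The windows of 3 genes whose rise is described above are shown to let these letters be read in place. Capitals mark CCAAT and TTTGAA or TTTAAA as they read on either strand, so that CCAAT on the other strand appears as ATTGG.
Top2a promoter, chr11:99024140-99024439, minus strand: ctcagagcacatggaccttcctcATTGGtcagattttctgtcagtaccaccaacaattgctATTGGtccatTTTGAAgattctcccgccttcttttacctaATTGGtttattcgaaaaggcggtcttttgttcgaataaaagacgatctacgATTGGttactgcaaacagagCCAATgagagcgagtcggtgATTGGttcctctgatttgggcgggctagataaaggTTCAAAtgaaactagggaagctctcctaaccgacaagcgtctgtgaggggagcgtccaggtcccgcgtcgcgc
Ccnb2 promoter, chr9:70421505-70421804, minus strand: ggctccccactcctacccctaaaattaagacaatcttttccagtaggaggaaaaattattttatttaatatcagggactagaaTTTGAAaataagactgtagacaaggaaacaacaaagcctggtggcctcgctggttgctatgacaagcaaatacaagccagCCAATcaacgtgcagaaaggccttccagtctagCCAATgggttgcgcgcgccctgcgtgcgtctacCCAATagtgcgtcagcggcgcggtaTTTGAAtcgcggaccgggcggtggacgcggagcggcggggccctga
Cdk1 promoter, chr10:69352863-69353162, minus strand: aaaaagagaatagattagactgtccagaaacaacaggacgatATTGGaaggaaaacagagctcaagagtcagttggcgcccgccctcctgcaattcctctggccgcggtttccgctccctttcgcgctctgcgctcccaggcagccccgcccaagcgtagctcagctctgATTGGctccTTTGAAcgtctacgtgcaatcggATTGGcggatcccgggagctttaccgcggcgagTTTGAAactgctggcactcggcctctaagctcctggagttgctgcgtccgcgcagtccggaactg
Counted from the gene start, the last match before it begins at -23 in Top2a, at -21 in Ccnb2 and at -15 in Cdk1. Such matches are a description of the letters in these windows and not measured binding.

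Some genes of growth and the nucleolus also rose. Myc encodes the transcription factor that drives ribosome production, and it rose 13.6-fold, from 5.64, 4.76 and 5.39 to 9.17, 9.05 and 8.86 (SE 0.30, limma adjusted p = 1.59e-07). Its day 2 arrays lay close together, in the order of the neutrophil list means and not in that of the macrophage list means. With values this close their order says little, and the part of other cells was not tested. Of 32 ribosome biogenesis genes tested, Myc included, 14 rose and none fell, with a median of 0.98. Nop58, a core protein of box C/D small nucleolar ribonucleoproteins, rose 3.11-fold, from 6.46, 6.94 and 6.44 to 8.60, 8.42 and 7.72. Rrp12, needed for export of ribosomal subunits, rose by 1.52, Gnl3, nucleostemin, by 1.45 and Heatr1, of the processome of the small subunit, by 1.44. Nucleolin (Ncl) was at 9.08, 8.82 and 9.30 against 10.09, 9.90 and 9.98, and its difference of 0.93 was under the minimum of the rule despite an adjusted p of 0.00592. Slc7a5, the large neutral amino acid transporter, rose by 4.19 (SE 0.47), from 2.48, 3.52 and 4.91 to 7.99, 7.51 and 7.99. It was named for its difference from satellite cells and belongs to no list fixed here.

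Pgf was the 1 called VEGF-family ligand, and 3 receptor genes fell. Of 19 genes of VEGF, angiopoietin and apelin signalling tested, the ligands Pgf and Apln rose. Flt1, Kdr and Nrp1, receptors or co-receptor for VEGF, and Ramp3, a co-receptor for adrenomedullin, fell. Vegfa, the main ligand of Kdr, was not called (difference 0.21), nor were Vegfb, Vegfc, Vegfd, Flt4 and Nrp2. Flt1, the receptor of Pgf and VEGF-A, fell 2.32-fold, from 10.70, 10.84 and 10.98 to 9.45, 9.64 and 9.79. Kdr, the main signalling receptor of VEGF-A, fell 2.21-fold, from 10.82, 11.00 and 10.16 to 9.44, 9.62 and 9.48. Day 2 arrays lay below all day 0 arrays for both. The 4 falls were lost without day 0 replicate 2, day 2 replicate 1 or day 2 replicate 2, and 2 remained without day 0 replicate 3. Angpt2, the angiopoietin that destabilises vessels, read 7.47, 8.02 and 6.98 against 9.74, 9.17 and 9.00 and just missed the rule (difference 1.81, adjusted p = 0.0538).

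Some genes of sprouting tip cells rose. Of 23 tested, 7 rose and none fell, with a median of 0.67. Besides Apln these included Plaur, the urokinase receptor, which rose 5.84-fold from 5.46, 6.43 and 6.82 to 9.25, 8.65 and 8.44. Chst1, a sulfotransferase, rose by 2.34 (SE 0.25), from 4.41, 4.34 and 4.73 to 6.95, 6.84 and 6.70. Mcam, the adhesion molecule CD146, rose 3.72-fold, from 8.73, 8.38 and 7.82 to 10.22, 10.34 and 10.06. Nid2, a basement membrane nidogen, rose 3.16-fold. Esm1, endocan, rose by 1.45, a call lost without day 0 replicate 2 or day 2 replicate 3. Dll4, the Notch ligand of tip cells, read 9.24, 9.20 and 8.93 against 8.61, 8.75 and 8.15 and was not called. Mcam is also expressed by pericytes, whose markers were lower on day 2.

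Capillary genes for fatty acid uptake were lower on day 2. Of 20 tested 9 fell and 1 rose, with a median of -1.07. On 17 every day 2 array lay below every day 0 array, against 14% of all genes tested. Timp4 led the list. Btnl9, a butyrophilin-like protein, fell by 2.76 (SE 0.36), from 6.27, 7.72 and 7.32 to 4.68, 4.04 and 4.32. Lpl, the lipase that releases fatty acids from lipoproteins, fell 4.85-fold, from 9.95, 10.33 and 11.35 to 8.12, 7.51 and 9.17 (limma adjusted p = 0.000569). Cd300lg, a capillary mucin, fell 3.81-fold, from 9.60, 10.08 and 10.08 to 7.32, 7.71 and 8.94. The groups of these 3 genes did not overlap.

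Car4, a carbonic anhydrase of the capillary surface, fell 4.96-fold, from 10.11, 10.56 and 10.52 to 8.01, 8.13 and 8.11. Although its arrays were tightly grouped, the call was lost when any 1 of the 6 endothelial arrays was left out (highest adjusted p 0.0892). Aqp7, Rgcc, Tcf15 and Aqp1 made up the other falls. Angptl4, an inhibitor of Lpl, rose 3.92-fold, from 6.22, 5.88 and 5.98 to 7.49, 8.55 and 7.95. The carriers Cd36, Fabp4 and Gpihbp1 kept high levels: Fabp4 read 12.00, 12.05 and 12.23 against 11.66, 11.73 and 11.90, and Gpihbp1 11.55, 11.73 and 11.89 against 10.97, 11.07 and 11.22. None of these 3 was called, with differences of -0.77, -0.33 and -0.64.

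Several enzymes and proteins of the matrix rose. Mmp14, the membrane-bound metalloprotease of invading cells, rose 11-fold, from 6.57, 6.16 and 5.07 to 9.41, 9.20 and 9.57 (limma adjusted p = 5.6e-07). Adamts4, an aggrecanase, rose by 3.47 (SE 0.48), from 5.24, 4.93 and 3.67 to 8.45, 8.36 and 7.46. Timp1, a metalloprotease inhibitor, rose by 2.71 (SE 0.31) while its relative Timp4 fell. Plau, urokinase, rose 4.75-fold, from 7.82, 7.43 and 6.52 to 9.85, 9.48 and 9.19, alongside its receptor Plaur. In all, 8 of 24 proteases and inhibitors rose and 3 fell (Timp3, Timp4 and Adamts5). Ctss was 1 of the 8 and is also a macrophage marker.

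Of 32 basement membrane and vascular matrix genes, 11 rose and 1 fell (Lamb2), with a median of 0.53 (7 rises without day 2 replicate 2, and no fall without day 2 replicate 1). Tnc, tenascin C, a matrix protein of wounds, rose by 3.67 (SE 0.38), from 4.34, 3.54 and 4.22 to 7.76, 7.94 and 7.41. Thbs1, thrombospondin 1, rose 5.76-fold, from 4.74, 5.32 and 5.72 to 8.46, 7.27 and 7.63. Integrin subunits rose too: Itga2 by 2.13 (SE 0.36) and Itgb3, a partner of the vitronectin receptor, by 2.12 (SE 0.29). Col15a1, a collagen next to basement membranes, rose 3.61-fold. Col4a1, the main collagen of the basement membrane, read 9.07, 9.07 and 8.60 against 9.25, 9.53 and 9.73 and was not called. Fn1, fibronectin, was uneven on day 0, at 8.23, 7.20 and 5.70, and overlapped with day 2 at 8.54, 8.26 and 7.94. Clotting genes contributed 3 rises of 17 tested, Plaur, Plau and Anxa2 (the last lost without day 0 replicate 3). Thbd, thrombomodulin, was not called at a difference of -0.68.

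**Figure D3:**
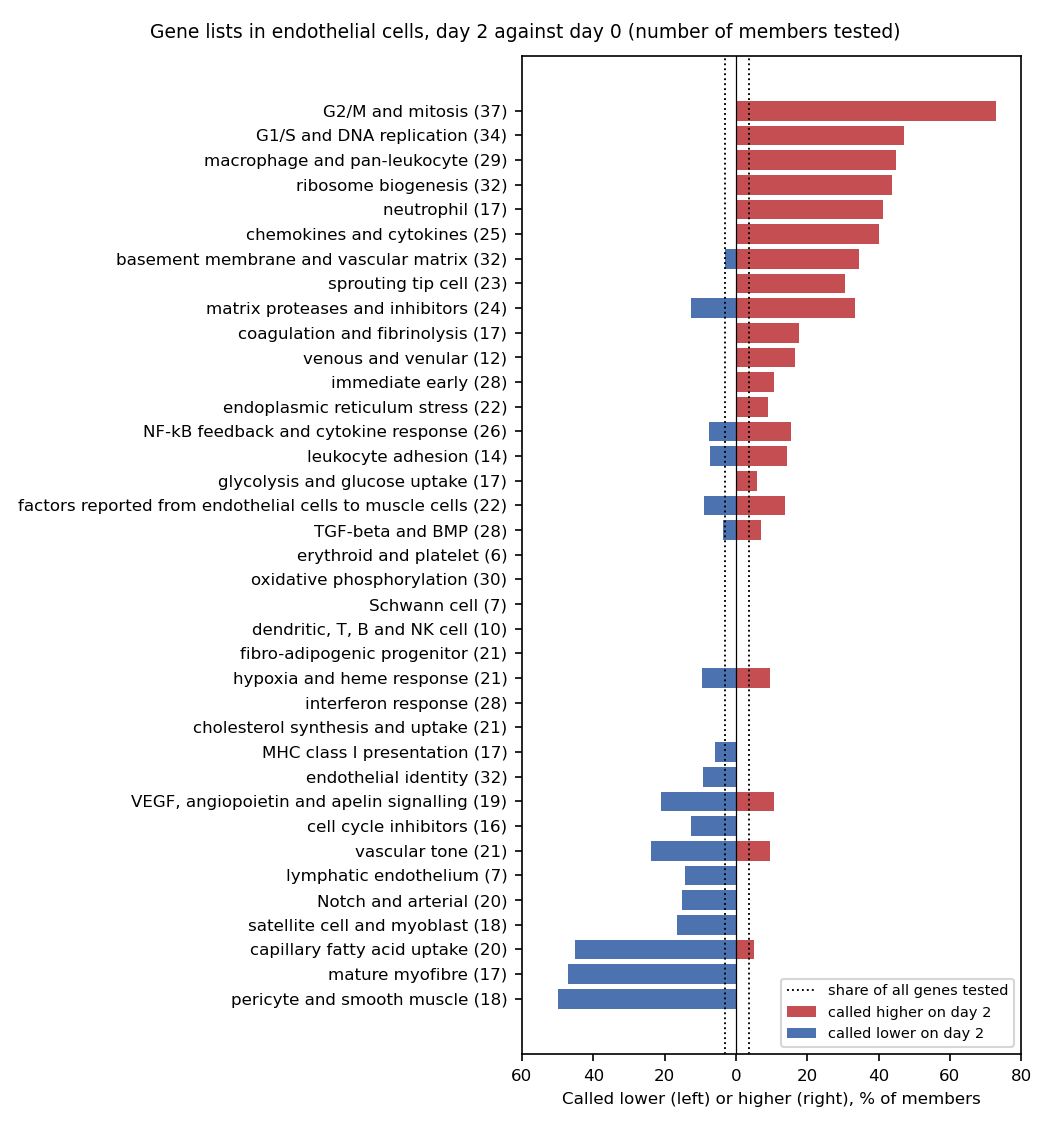
Share of the tested members of each gene list that rose (red, to the right) or fell (blue, to the left) in endothelial cells on day 2, in percent, with the number tested in brackets and dotted lines at the shares over all genes, 3.73% and 3.01%. The lists plotted were chosen with earlier results of these data known, and lists put together after the values here were seen are left out. Among the lists plotted, mitotic genes lead on the right with 27 of 37, and pericyte, myofibre and capillary fatty acid genes on the left with 9 of 18, 8 of 17 and 9 of 20.

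Some chemokine and cytokine genes rose, as did leukocyte markers. Of 25 tested, 10 rose and none fell, with a median of 1.21. Ccl2, the main attractant of monocytes, read 3.74, 5.04 and 4.29 on day 0 and 9.82, 8.49 and 8.97 on day 2, a difference of 4.74 (SE 0.41, limma adjusted p = 3.67e-07). Cxcl2, an attractant of neutrophils, rose by 5.69 (SE 0.52), from 3.72, 2.91 and 3.03 to 9.77, 8.59 and 8.36. Il1b, the cytokine interleukin 1 beta, was uneven, at 8.82, 7.63 and 5.88 on day 2 against 3.04, 3.26 and 2.78. Its day 2 order was that of the neutrophil list means (5.58, 4.88 and 4.04).

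Il6, interleukin 6, had closely grouped day 2 arrays. It read 3.90, 2.59 and 3.66 on day 0 and 6.48, 6.32 and 6.79 on day 2, a difference of 3.15 (SE 0.51). Ccl6, a chemokine that is also in the leukocyte marker list, read 8.14, 4.48 and 6.79 on day 2, the order of the macrophage list means (7.71, 5.15 and 6.66). Ccl7, Ccl9, Cxcl10 and Cxcl1 were the other rises, and that of Cxcl1, from 4.31, 4.90 and 5.65 to 6.90, 5.93 and 6.63, was lost without day 0 replicate 1 or day 2 replicate 1. The part of leukocytes in these rises was not tested.

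Chemokine promoters are known targets of NF-kB. The genes for this search were chosen after their values were seen. Windows were at hand for 8 of the 10 genes, and the NF-kB motif given above, on either strand, occurred in 4 of the 8 (50%, in Cxcl2, Cxcl1, Il6 and Ccl9), against 1.61% of the windows of tested genes and 1.63% of all windows. CCAAT occurred in 25% of the 8, TTTGAA or TTTAAA in 25% and TGACTCA in 25%. The windows of Cxcl2 and Il6, whose values are given above, are shown with the NF-kB motif in capitals.
Cxcl2 promoter, chr5:90903649-90903948, plus strand: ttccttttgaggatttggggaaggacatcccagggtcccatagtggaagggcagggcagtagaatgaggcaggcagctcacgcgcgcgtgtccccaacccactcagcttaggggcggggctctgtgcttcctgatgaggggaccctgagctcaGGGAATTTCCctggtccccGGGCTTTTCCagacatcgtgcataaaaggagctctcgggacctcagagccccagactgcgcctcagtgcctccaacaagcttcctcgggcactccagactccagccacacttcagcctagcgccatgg
Il6 promoter, chr5:30012864-30013163, plus strand: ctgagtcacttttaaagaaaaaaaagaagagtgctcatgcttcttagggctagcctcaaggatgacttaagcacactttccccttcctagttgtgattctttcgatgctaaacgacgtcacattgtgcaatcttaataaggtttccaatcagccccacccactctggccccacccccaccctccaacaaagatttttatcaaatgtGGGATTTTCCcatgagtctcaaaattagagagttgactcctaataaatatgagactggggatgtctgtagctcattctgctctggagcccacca
Counted from the gene start, the matches begin at -97 and -78 in Cxcl2 and at -44 in Il6. As above, they describe letters and not binding.

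Other inflammatory response genes gave fewer calls. Of 26 genes of NF-kB feedback and cytokine response, 4 rose and 2 fell. Il4ra, a subunit of the interleukin 4 receptor, rose 2.29-fold from 7.34, 7.73 and 7.45 to 8.84, 8.61 and 8.66. The other rises (Tnfaip2, Tlr4 and Bcl3) were not stable: 1 rise was called without day 0 replicate 3 or day 2 replicate 1, and 2 without day 0 replicate 2 or day 2 replicate 2. Cebpd, a transcription factor of acute inflammation, fell 3.48-fold, from 7.28, 7.53 and 7.52 to 4.89, 5.90 and 6.15. Socs1, an inhibitor of cytokine receptors, fell by 1.73 (SE 0.33). Nfkbia, the inhibitor of NF-kB, was not called, at 9.12, 9.32 and 9.38 against 9.44, 9.41 and 9.53.

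Of 14 genes of leukocyte adhesion tested, 2 rose (14.3%) and 1 fell (7.14%), against 3.73% and 3.01% of all genes tested. Icam1 read 5.92, 5.79 and 6.18 against 6.43, 5.80 and 6.32, and Vcam1 6.10, 6.66 and 6.29 against 5.79, 6.90 and 6.78, and both overlapped between the days. Selp, P-selectin, lay higher on all day 2 arrays (6.53, 6.43 and 6.59 against 7.71, 8.42 and 7.25) and was not called (difference 1.28, adjusted p = 0.143). Sele, E-selectin, rose by 1.84 (SE 0.46), from 4.19, 3.92 and 4.31 to 4.90, 7.15 and 5.88, a call lost without day 0 replicate 2 or day 2 replicate 2. Pvr, the poliovirus receptor, also rose and Jam2, a junctional molecule, fell among 14 tested. Without day 0 replicate 2 no adhesion gene was called higher and without day 0 replicate 3, day 2 replicate 1 or day 2 replicate 2 only 1 was, and without any of day 0 replicates 1 to 3 or day 2 replicates 1 and 2 the fall of Jam2 was lost. Lrg1, a glycoprotein of activated venules, rose 2.46-fold, and its call was lost without any of the 3 day 0 arrays or day 2 replicates 2 and 3. It and Sele were the 2 rises among 12 venous genes, of which none was called higher without day 0 replicate 2 or day 2 replicate 2, and 1 without day 0 replicate 1, day 0 replicate 3 or day 2 replicate 3. Without day 2 replicate 2, 1 venous gene was called lower.

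Interferon response genes gave no call among 28 tested, where 6.73% of all genes were called, with a median of -0.08 (limma). A day 0 array stood apart in them: the list means were 7.09, 7.20 and 8.88 on day 0 and 6.97, 7.94 and 7.76 on day 2. Ifit1, an interferon-induced RNA-binding protein, read 7.11, 6.80 and 10.02 on day 0 and 6.91, 8.25 and 8.28 on day 2. Irf7, the interferon regulatory factor, read 7.75, 7.00 and 9.93 against 7.49, 8.55 and 8.73. Leaving out 1 endothelial array at a time moved the median from -0.46 (without day 0 replicate 1) and -0.32 (without day 0 replicate 2) to 0.14 (without day 2 replicate 1) and 0.36 (without day 0 replicate 3). It was -0.22 without day 2 replicate 2 and -0.20 without day 2 replicate 3, and the number called stayed at 0. Among 17 genes of MHC class I presentation only H2-T23 was called, lower by 1.23, and the call was lost without day 0 replicate 2 or 3 or day 2 replicate 1 or 2. B2m, the light chain of MHC class I, read 12.35, 12.35 and 12.50 against 12.31, 12.49 and 12.38.

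Some vascular tone genes fell. Of 21 vascular tone genes tested 5 fell and 2 rose, with a median of -0.49 (3 falls without day 0 replicate 1, and 2 without day 0 replicate 2 or day 2 replicate 2, while 1 rise was called without day 0 replicate 3 or day 2 replicate 1). Gucy1a1, a subunit of the guanylate cyclase that senses nitric oxide, fell by 2.75 (SE 0.58), from 8.39, 8.14 and 6.90 to 5.47, 4.85 and 4.84 (limma adjusted p = 0.00452). Kcnj8, the potassium channel of pericytes, fell 5.56-fold, from 9.13, 8.26 and 7.89 to 6.83, 5.51 and 5.53. Nos3, the endothelial nitric oxide synthase, read 8.24, 8.20 and 8.06 against 8.23, 8.33 and 8.42 and was not called. Ptgs2, the inducible cyclooxygenase that myeloid cells also express, rose by 3.13 (SE 0.63), from 3.19, 2.79 and 2.75 to 7.44, 5.98 and 4.68, in the day 2 order of the neutrophil list. Ddah1, which degrades inhibitors of nitric oxide synthesis, rose 4.15-fold, a call lost without day 0 replicate 3 or day 2 replicate 1. Edn1, endothelin 1, was higher on all day 2 arrays and not called (difference 1.47, adjusted p = 0.0788). Gucy1a1 and Kcnj8 are mural genes, and they fell beside Rgs5 (4-fold, from 11.65, 11.35 and 11.38 to 10.24, 8.89 and 9.26), a pericyte marker. The part of mural RNA was not tested.

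Of 20 Notch and arterial genes 3 fell and none rose, with a median of -0.62. Heyl, a Notch target in mural and satellite cells, fell 5.27-fold, from 8.27, 8.35 and 7.26 to 5.98, 5.73 and 4.98. Mgp, matrix Gla protein, fell 3.39-fold, from 9.54, 9.10 and 9.25 to 7.29, 7.67 and 7.65. Sema3g, an arterial semaphorin, also fell, a call lost without any of 5 of the 6 endothelial arrays. Notch1 overlapped between the days, at 8.58, 8.48 and 8.21 against 8.26, 8.40 and 8.19, and Hey1 was not called at a difference of -0.85.

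Of 3 bone morphogenetic protein ligands tested, Bmp2 rose, Bmp6 fell and Bmp4 was not called (difference 0.06). Bmp2 rose by 3.61 (SE 0.39), from 3.98, 4.49 and 3.96 to 7.96, 7.88 and 7.44 (limma adjusted p = 6.37e-06). Every day 2 array of Bmp2 lay above, and every one of Bmp6 below, the day 0 arrays. Snai1, a transcription factor downstream of TGF-beta, rose by 2.46 (SE 0.48), from 6.06, 4.69 and 4.12 to 6.76, 7.50 and 8.00. Id1, a target of BMP signalling, read 9.26, 9.73 and 9.24 against 8.54, 7.55 and 8.44 and was not called (difference -1.24, adjusted p = 0.0659). Smad6, another target, overlapped near background. In all 2 of 28 genes rose and 1 fell, with a median of -0.37, and 2 falls were called without day 0 replicate 3 or day 2 replicate 1 and 3 without day 2 replicate 3.

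Among 22 factors by which endothelial cells are reported to act on muscle cells, Apln, Bmp2 and Pdgfa rose and Igf2 and Tnfsf10 fell. Pdgfa, a platelet-derived growth factor, rose by 1.09 (SE 0.27), a call lost without day 0 replicate 3 or day 2 replicate 1 or 2. Igf1, insulin-like growth factor 1, read 5.53, 5.78 and 5.80 against 5.81, 5.92 and 6.20 and was not called. The falls of Igf2 and Tnfsf10 were both lost without day 0 replicate 1, day 0 replicate 2 or day 2 replicate 2, and 1 was lost without day 0 replicate 3 or day 2 replicate 1. Hgf, Fgf1 and Lif were among the members below the filter on low values.

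No member of 2 metabolic lists passed the rule, which 6.73% of all genes tested passed, so lists of this size could give no call. None of 30 oxidative phosphorylation genes and none of 21 cholesterol genes was called by limma, with medians of 0.23 and 0.16 (1 cholesterol gene was called higher without day 2 replicate 1, and the cholesterol median was -0.04 without day 2 replicate 2). In glycolysis Pkm, pyruvate kinase, was the 1 call among 17 genes, rising 2.53-fold from 9.26, 9.09 and 8.93 to 10.35, 10.65 and 10.30 (limma adjusted p = 3.84e-05). Without day 0 replicate 1 or day 2 replicate 3, 1 glycolysis gene was called lower. Hmox1, the heme oxygenase, rose 4.38-fold, from 7.94, 7.49 and 7.55 to 9.76, 9.62 and 9.99, and Hif1a 2.31-fold, from 7.69, 7.78 and 7.94 to 8.81, 9.11 and 9.12. Egln1, the prolyl hydroxylase that marks HIF proteins for degradation, fell 3.34-fold, from 8.78, 8.93 and 8.21 to 6.58, 6.66 and 7.46. Epas1, which encodes HIF2 alpha, fell 2.08-fold, from 11.01, 11.10 and 11.03 to 9.98, 9.81 and 10.18, a call lost when any 1 of the 6 arrays was left out. These 4 were the calls among 21 hypoxia and heme genes. Of 22 endoplasmic reticulum stress genes Sdf2l1 and Manf rose, and none was called without day 0 replicate 3 or day 2 replicate 1, and 1 without day 2 replicate 2. The call of Sdf2l1 was lost in 25 of 39 alternatives, among them without any 1 of the 6 endothelial arrays and with the sample number in the array names as a random block. Hspa5, the main chaperone of that compartment, had an adjusted p of 0.00189 and a difference of 0.87, under the minimum. Immediate early genes, which respond within minutes to stimulation and also to cell handling, gave 3 rises of 28 (Fosl1, Nr4a2 and Nr4a1). None of these was called without day 0 replicate 3 or day 2 replicate 1, and 1 was called without day 0 replicate 1 or 2 or day 2 replicate 3. Fos read 9.61, 9.54 and 9.85 against 9.79, 9.53 and 9.85.

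Later days give the course of the day 2 changes, as a description with no test. Pgf was at a mean of 7.29 on day 4 and 4.87 on day 8, against 9.03 on day 2 and 4.07 on day 0. Bmp2 was at 6.85 on day 4 and 4.03 on day 8, next to its day 0 mean of 4.15. Apln (8.02, then 7.58) and Myc (8.70, then 7.60) stayed above their day 0 means of 5.84 and 5.26. Top2a was higher on day 4, at 7.71, than on day 2, at 6.87. Timp4 was at 6.36 on day 4 and 8.32 on day 8, against 10.81 on day 0, whereas Bmp6 was at 5.63 and 6.01 and Cdh23 at 3.73 and 4.77. S100a8, at 2.58 on day 4 and 2.23 on day 8, was back near its day 0 mean of 2.09, while Ctss was at 9.24 and 7.37. The mean of the neutrophil list on these days was 3.55 and 3.40, and that of the macrophage list 6.97 and 5.23.

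**Figure D4:**
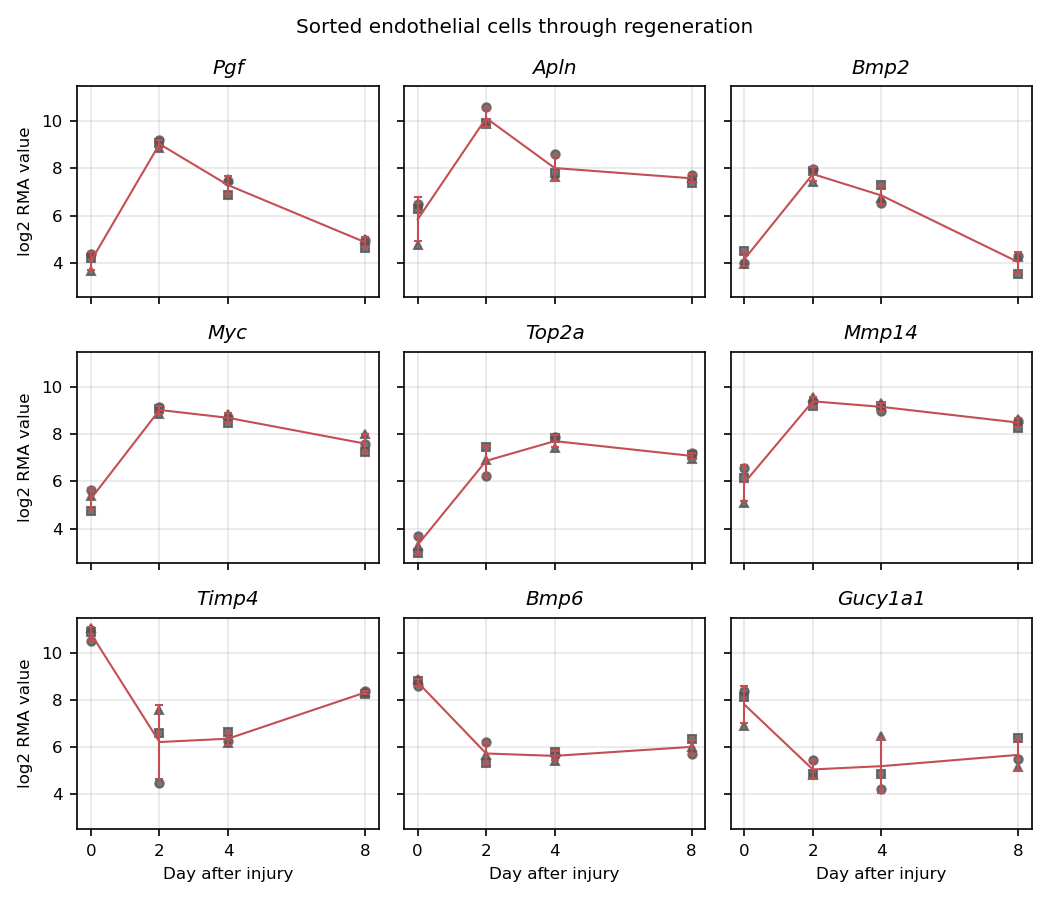
Log2 RMA values of 9 genes in endothelial cells on days 0, 2, 4 and 8, with symbols for the 3 arrays of a day, a red line through the means and bars for the SD. Pgf and Bmp2 peak on day 2 and are near their day 0 level on day 8, while Bmp6 and Gucy1a1 stay low.

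The response of endothelial cells was set against that of satellite cells, the stem cells of the muscle, sorted as cells lacking CD45, Sca1 and CD31 and carrying alpha7 integrin. The difference of the 2 responses was tested in the same model: 708 genes (5.03% of those tested) responded higher in endothelial cells and 906 (6.44%) lower. Of the 524 genes that rose in endothelial cells 147 had such a difference, 90 with the higher response in endothelial cells. Of the 423 that fell 145 had one, 132 with the lower response there. The difference of responses contains the endothelial difference by which these genes were picked, so both splits are partly built in. In satellite cells 10.9% of genes rose and 9.67% fell. The array names of the 2 cell types share a sample number (other than the running number) in all 3 pairs of day 2 and in 2 of the 3 of day 0, and the labels do not say what the number marks. The day 2 pairs correlated at 0.15, 0.20 and 0.04 in their deviations from the group means. With the sample number as a random block, 761 genes responded higher and 964 lower.

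Bmp2 gave the largest positive difference among genes that rose, at 4.61 (interaction, limma adjusted p = 2e-05). The Bmp2 response was 3.61 in endothelial cells and -1.0 in satellite cells. Myc followed at 4.12 (3.76 against -0.36), then Medag (4.01), Snora69 (3.89) and Slc7a5 at 3.83 (4.19 against 0.36). The rise of Medag was lost without day 0 replicate 2, and that of Snora69 without any 1 of the 6 endothelial arrays. Mmp14 (3.46 against -0.23) and Adamts4 (3.47 against 0.25) also responded higher, as did Pgf (4.96 against 2.24). Apln rose alike on the measured scale, at 4.30 and 3.99, with a difference of 0.31 and an adjusted p of 0.83. No interaction call was made for Top2a (0.25), Mki67 (-0.07) or Ccnb2 (-0.03), and 0 of 37 mitotic genes responded higher and 1 lower.

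Among falls, Timp4 (-4.59 against -1.22), Cdh23 (-3.59 against -0.07), Fgf9 (-3.07 against 0.24) and Aldh1l1 (-3.10 against 0.03) responded lower in endothelial cells. Xdh, xanthine dehydrogenase, gave the largest difference among genes called in endothelial cells, -5.46. It read 9.31, 9.45 and 10.27 on day 0 and 6.39, 6.78 and 7.18 on day 2 in endothelial cells. Its response in satellite cells was 2.56. Of 20 capillary fatty acid genes 9 responded lower in endothelial cells. Of 32 endothelial identity genes 14 did, and 19 of the 32 rose in the satellite cell arrays, against 10.9% of all genes. Cdh5, a gene satellite cells should lack, had a response of 1.82 there. Leukocyte genes rose further in the satellite cell arrays than in endothelial cells: S100a8 by 8.71 against 5.95 and Il1b by 7.54 against 4.42. Of 29 macrophage and pan-leukocyte markers 19 responded lower in endothelial cells, and all 29 rose in the satellite cell arrays. What other cells contribute to these differences was not tested.

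**Figure D5:**
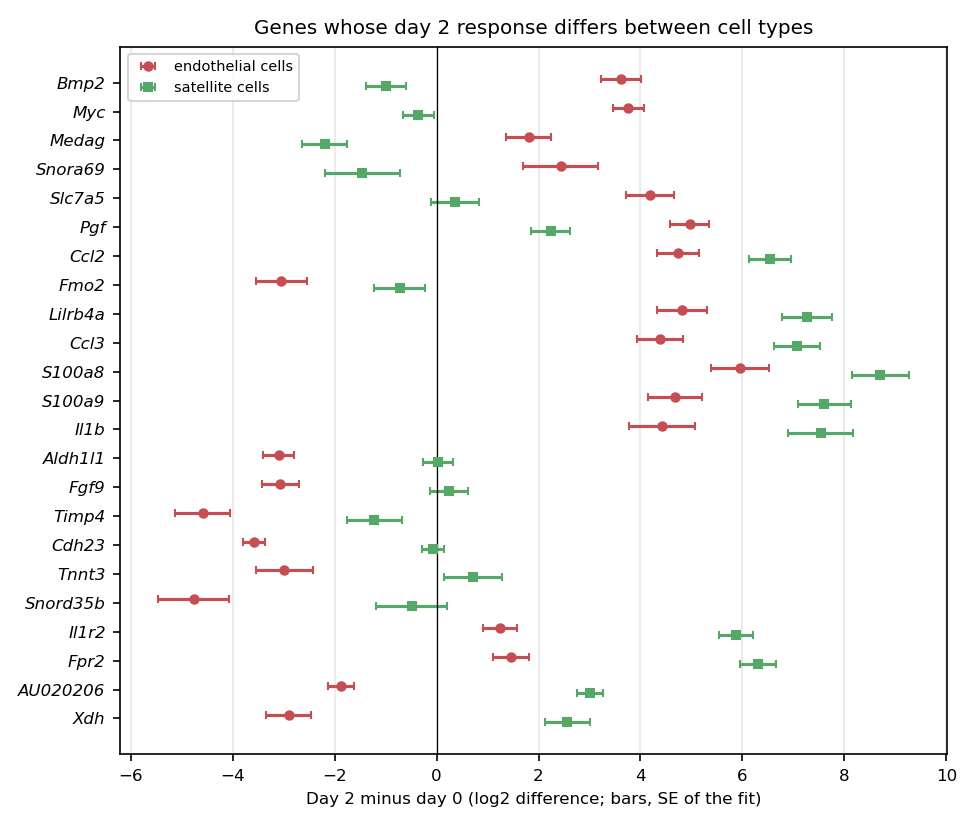
Log2 difference between day 2 and day 0 in endothelial cells (red circles) and satellite cells (green squares), with bars for the SE of the fit, for 23 named genes whose responses differed by the interaction test. Bmp2, Myc and Slc7a5 respond higher in endothelial cells, while Xdh and AU020206 fell there and rose in satellite cells.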

How the data were processed

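Microarray expression (MoGene-2.0-st) was measured in 24 samples, of which 6 are described here. The authors deposited log2 values made with RMA, per the submitters' processing notes, with a version and annotation that are not given in the sources used here, and 0 columns of per-sample values were set aside. RMA corrects background, quantile normalizes and summarises probes, which forces a shared distribution on all arrays and compresses folds of dim genes. RNA was amplified from very small inputs, per the labels' protocols. With 3 arrays in a group, precision is set by their number.

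Of 24479 probe sets 23281 carried a gene symbol, the brightest set stood for a gene, and 14064 genes above the array median on at least 3 of 24 arrays were tested. A mean for each of the 8 groups was fitted with limma 3.58.1 (R 4.3.3), with moderated two-sided tests and Benjamini-Hochberg adjustment over all genes tested. The difference of responses between cell types was a contrast of the same model. Counts of list members are descriptions. Genes named are the 12 largest called rises and falls without overlap, up to 6 called members and fixed anchors of each list, the sort genes, and the 5 largest differences between cell types in each direction. The last were ranked only among genes called in endothelial cells. The members and lists were chosen with earlier results of these data known. Replicate numbers did not pair the endothelial arrays of days 0 and 2 (correlations of deviations 0.08, -0.04 and 0.04). Alternatives changed the filter, arrays fitted, scaling, moderation, threshold, block and replicates left out. The calculations were tested on simulated data. Ly6a, which encodes Sca1, was not analysed here.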

Additional observations from a re-analysis of the deposited data

Results flagged for a closer look

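The day 2 response (log2 difference from day 0) differed between endothelial and satellite cells, by the interaction test of limma, for many genes. The 23 given here are those among the 12 largest rises and falls in endothelial cells, or among the 5 largest differences between the cell types in each direction. Those 5 were taken only from genes that rose or fell in endothelial cells. Higher responses in endothelial cells were found for Bmp2 (difference of responses 4.61), Myc (4.12), Medag (4.01), the small nucleolar RNA Snora69 (3.89), Slc7a5 (3.83) and Pgf (2.73). The rise of Medag in endothelial cells was lost without day 0 replicate 2, and that of Snora69 without any 1 of the 6 endothelial arrays.

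Lower responses in endothelial cells, among genes that rose there, were found for Ccl2 (-1.81), Lilrb4a (-2.46), Ccl3 (-2.69), S100a8 (-2.76), S100a9 (-2.93), Il1b (-3.12), Il1r2 (-4.63) and Fpr2 (-4.85). These are genes that leukocytes express, and leukocyte markers rose in both sorted populations. The endothelial call of Il1r2 was lost without day 0 replicate 1, day 0 replicate 2 or day 2 replicate 1, and that of Fpr2 without day 2 replicate 2.

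Among genes that fell in endothelial cells, lower responses there were found for Fmo2 (-2.32), Aldh1l1 (-3.13), Fgf9 (-3.31), Timp4 (-3.37), Cdh23 (-3.52), Tnnt3 (-3.70), Snord35b (-4.28), AU020206 (-4.88) and Xdh (-5.46).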

How the results depend on the processing

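Counts of rises and falls in endothelial cells (524 and 423) and of higher and lower responses than in satellite cells (708 and 906) stayed within 1.5 times under changes of filter, scaling, arrays fitted, trend and probe set summary, with these exceptions. Requiring a difference of at least 1 within the test itself (treat) gave 41 rises and 17 falls, and 79 and 119 for the difference of responses. A test without moderation, fitted on the 6 arrays compared alone, gave 2 and 0, with 2920 genes at an unadjusted p under 0.05. With moderation the same 6 arrays gave 495 and 383. For the difference of responses the unmoderated test was fitted on the 12 arrays of days 0 and 2. It gave 308 and 255, against 532 and 610 with moderation on those arrays. Leaving out 1 array at a time gave 362 (without endothelial day 0 replicate 3) to 589 rises and 248 (without endothelial day 2 replicate 2) to 461 falls, and 506 to 956 and 655 to 1315 for the difference of responses. With the replicate block, which the numbers do not warrant as a pairing (3 of 6 arrays correlated best with their own number), 555 rose and 438 fell. Fitting the 12 arrays of days 0 and 2 alone gave 408 and 299. No named gene turned direction while called, and 88 of 135 called named genes kept their call whichever single array was left out. For genes near background in 1 group no fold is given, and 3 arrays a group limit every comparison. The counts of list members without endothelial day 2 replicate 1 were added after seeing the data, since its leukocyte list mean was the highest of the 3.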

Other observations

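Further gene groups were put together after values had been seen, so their counts are descriptions. Of 23 detoxification and retinoid genes 15 fell and none rose, with a median log2 difference of -1.49, and the means of the list were 7.62, 7.63 and 7.71 on day 0 against 5.92, 6.10 and 6.61 on day 2. Fmo1, a flavin monooxygenase, read 10.54, 10.74 and 10.78 against 7.44, 7.99 and 8.90 and fell by 2.58. Adh1, an alcohol dehydrogenase that also acts on retinol, fell by 2.54, Sult1a1, a sulfotransferase, by 2.30, Dhrs3, a retinal reductase, by 2.18, and Cyp26b1, which degrades retinoic acid, by 1.53. All 3 subunit genes of soluble guanylate cyclase measured here fell, among them Gucy1a2, by 2.08 (2 were called without day 0 replicate 1 or 2 or day 2 replicate 2 or 3, in turn).

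Some genes that supply growing cells rose. Of 8 subunits of the CCT chaperonin, which folds actin and tubulin, 6 rose (3 without day 0 replicate 3), with a median of 1.07. On all 8 every day 2 array lay above every day 0 array, against 16.1% of all genes tested. Of 19 nucleotide synthesis genes 9 rose, among them Ctps, CTP synthase, by 2.13 and Nme1, a nucleoside diphosphate kinase, by 1.82. Of 16 genes of amino acid uptake and one-carbon metabolism 8 rose and 1 fell (Aldh1l1). The rises included Mthfd2 and Psat1, each by 1.87, and Slc1a5, a glutamine carrier, by 1.47. Of 19 cytosolic tRNA synthetases 5 rose (3 without day 0 replicate 3, day 2 replicate 1 or day 2 replicate 2). Small nucleolar RNAs, a separate group, gave 6 rises and 1 fall (Snord35b, by 4.77) among 92, against 3.73% and 3.01% of all genes tested.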
